A study of Mus musculus with 6 samples.

Results

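10 muscle genes that build or maintain the sarcomere were followed in PRR14-knockout mouse skeletal muscle given MEF2C. They are the Kelch genes Klhl31, Klhl40 and Klhl41, the leiomodins Lmod2 and Lmod3, the myomesins Myom1, Myom2 and Myom3, the methyltransferase gene Smyd1 and the kinase gene Srpk3. They were found by gene symbol, and all 10 were among the 22036 gene rows of the deposited table and among the 9229 genes with enough counts to be tested. One group, with 3 libraries named MEF2C below, was muscle of PRR14-KO mice into which an adeno-associated virus (AAV) carrying MEF2C-GFP had been injected 1 month earlier. The control group, with 3 libraries named GFP, was PRR14-KO muscle 1 month after an AAV carrying GFP. All animals carried the knockout, and no wild-type library entered the comparison. The labels give neither the muscle, the age, the promoter of the virus nor whether the replicates are separate animals, so that the errors below measure the spread between these samples. Each library was Nanopore PCR-cDNA, with 3370833 to 3900617 counts on the listed genes. The genes were chosen by role and symbol, with the fold changes between MEF2C and GFP libraries already known, so those fold changes count among the values they were selected on. The differences between MEF2C and GFP libraries are therefore given as a description, and nothing is inferred from them.

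Muscle Kelch proteins carry a BTB domain, through which many Kelch proteins bind the cullin-3 ubiquitin ligase, and Kelch repeats that bind partners. KLHL40 and KLHL41 protect thin-filament proteins, and loss of either in people causes nemaline myopathy, as does loss of LMOD3. Leiomodins start new actin filaments and set thin-filament length, while myomesins cross-link myosin thick filaments at the M-band, the midline of the sarcomere. SMYD1 is a muscle methyltransferase that also helps myosin to fold and assemble, and SRPK3 is a muscle kinase of SR splicing proteins. MEF2 factors bind A/T-rich sites and drive many such genes, and in mice loss of MEF2C from skeletal muscle disorganises the M-band.

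The virus-borne factor is the first point of reference. Mef2c itself stood at 234, 196 and 371 CPM (counts scaled to the normalised library size) in MEF2C replicates 1, 2 and 3, against 223, 261 and 236 CPM in GFP replicates 1, 2 and 3. Only MEF2C replicate 3 stood above the GFP libraries, so the counts of this gene do not set MEF2C replicates 1 and 2 apart from them. Whether viral transcripts were counted is not given in the sources used here. Prr14 counts were 30, 23 and 20 for MEF2C replicates 1, 2 and 3, against 11, 12 and 15 for GFP replicates 1, 2 and 3, and with no wild-type library these do not check the knockout. Markers of skeletal muscle, 6 genes, summed to between 82819 and 93689 CPM in the MEF2C libraries and between 100470 and 123099 CPM in the GFP libraries, without overlap. Acta1 and Ckm made up most of each sum and were lower in the MEF2C libraries without overlap. Taken singly, Myh4, Ryr1, Actn3 and Cacna1s overlapped between the groups. Cardiac markers, which matter because Lmod2, Smyd1 and Myom2 are also heart genes, were near absent. Their 6 genes summed to at most 1.74 CPM in the MEF2C libraries and 1.48 CPM in the GFP libraries, with Myl7 and Nppa at 0 throughout. In bulk tissue, fewer cells of a type and less RNA per cell cannot be told apart.

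Because MEF2C is the factor supplied, the 250 bases before the annotated start of each gene were searched on both strands for the MEF2 motif. RefSeq promoter windows (GRCm38.p6) were matched for 8 of the 10 genes, all but Lmod3 and Myom2. A match to the MEF2 motif was found in 3 of the 8, Klhl41, Myom3 and Srpk3, where 2.92% of 32851 windows over all genes and 1.85% of the 9404 windows of tested genes held one. The Kelch genes were chosen as linked to MEF2, and Srpk3 is a known MEF2C target. The share among the 8 is therefore not independent of the choice of genes and is given as a description. The windows of Klhl41, Myom3 and Srpk3 are shown 5′ to 3′ with the match in capitals, followed by that of Klhl40, which holds none.
Klhl41, chr2:69669870-69670119, plus strand: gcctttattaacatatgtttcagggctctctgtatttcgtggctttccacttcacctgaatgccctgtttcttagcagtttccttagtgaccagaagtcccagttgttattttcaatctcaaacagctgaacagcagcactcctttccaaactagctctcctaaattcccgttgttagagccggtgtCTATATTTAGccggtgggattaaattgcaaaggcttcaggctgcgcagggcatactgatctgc
Myom3, chr4:135759465-135759714, plus strand: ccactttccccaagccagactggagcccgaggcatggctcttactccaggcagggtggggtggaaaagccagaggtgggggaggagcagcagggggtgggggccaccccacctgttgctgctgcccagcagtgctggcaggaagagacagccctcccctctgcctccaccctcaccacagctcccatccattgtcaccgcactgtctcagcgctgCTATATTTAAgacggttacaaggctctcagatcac
Srpk3, chrX:73774155-73774404, plus strand: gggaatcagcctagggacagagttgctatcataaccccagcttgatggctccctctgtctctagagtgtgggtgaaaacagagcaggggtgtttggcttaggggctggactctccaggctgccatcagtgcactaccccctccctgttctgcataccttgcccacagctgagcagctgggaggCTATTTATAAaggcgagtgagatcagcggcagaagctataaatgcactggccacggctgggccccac
Klhl40, chr9:121777357-121777606, plus strand: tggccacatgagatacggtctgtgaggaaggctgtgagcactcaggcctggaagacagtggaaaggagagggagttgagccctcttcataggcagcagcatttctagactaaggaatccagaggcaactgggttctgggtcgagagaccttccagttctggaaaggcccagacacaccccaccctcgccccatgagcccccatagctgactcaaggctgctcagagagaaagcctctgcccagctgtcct
The Klhl41 match, CTATATTTAG, spans the bases from 63 to 54 before the start. The Myom3 match, CTATATTTAA, lies nearer, from 35 to 26 before the start. The Srpk3 match, CTATTTATAA, lies from 67 to 58. The CArG box, bound by the serum response factor SRF, was matched in 1 window, that of Myom1, against 1.47% of all windows. The muscle motif M-CAT, CATTCC, was matched in 0 of the 8, against 12.6% of all windows. The E-box CANNTG, bound by MyoD-type factors, was matched in 6 of the 8, against 66.2% of all windows. The E-box and MEF2 matches in these windows do not overlap. The Klhl31, Myom1 and Smyd1 windows start at a RefSeq site 232, 16924 and 59952 bases from the GENCODE gene start, and for those genes the window may not be the promoter in use. A match is a stretch of letters and not a bound site.

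Levels across the 10 genes were compared per kilobase of the longest GENCODE transcript, as the median CPM per kilobase of the 3 libraries of each group. In the MEF2C libraries Myom2 was highest at 94.0 CPM per kilobase, followed by Smyd1 at 65.2, Myom1 at 64.8, Klhl31 at 56.0 and Lmod3 at 41.0. In the GFP libraries Myom2 was highest at 91.5 CPM per kilobase, followed by Klhl31 at 89.7, Smyd1 at 74.0, Myom1 at 60.4 and Lmod3 at 42.1. By these medians Klhl31 stood below Smyd1 and Myom1 in the MEF2C libraries and above both in the GFP libraries. The order was not the same in each MEF2C library. Klhl31 lay below both in MEF2C replicates 1 and 2. In MEF2C replicate 3 it had 72.7 CPM per kilobase, above Smyd1 at 56.4 and Myom1 at 64.8. The lower places went to Klhl40, Klhl41, Lmod2 and Srpk3, between 17.2 and 29.5 CPM per kilobase in the MEF2C libraries and between 14.6 and 28.9 in the GFP libraries. Myom3 was lowest in both, at 1.72 CPM per kilobase in the MEF2C libraries and 1.49 in the GFP libraries. In the MEF2C libraries the range of each gene overlapped that of the next gene down, except from Myom2 to Smyd1 and from Srpk3 to Myom3. In the GFP libraries neighbours overlapped from Myom2 to Klhl31, Smyd1 to Myom1, Klhl41 to Lmod2 and Lmod2 to Srpk3, and the other neighbours did not. A Nanopore read can span a whole transcript, so that dividing by length may set long genes too low. On the CPM scale without it, Myom2 was highest in the MEF2C libraries, with a median of 477 CPM, and Klhl31 in the GFP libraries, with a median of 582 CPM.

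**Figure D1:**
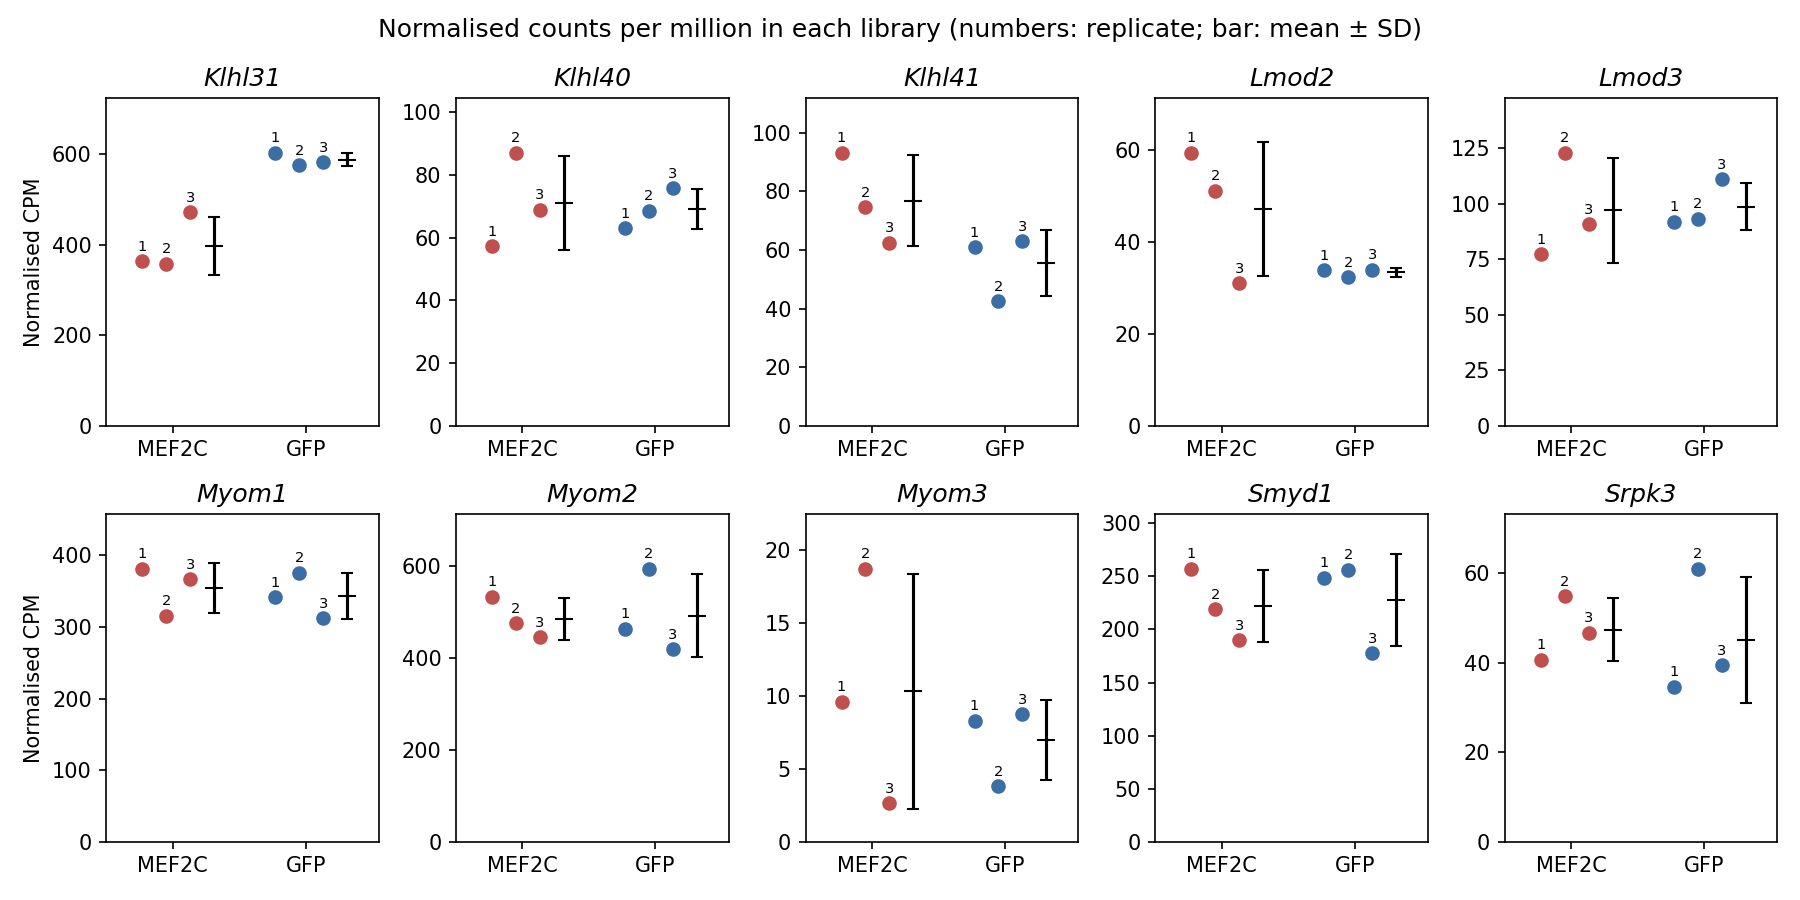
Normalised CPM (y axis, from 0) of each gene in each library, with MEF2C libraries in red and GFP libraries in blue, replicate numbers above the points and the mean ± SD beside each group. Klhl31 is the gene whose groups do not overlap, at 358 to 472 CPM in the MEF2C libraries and 576 to 603 CPM in the GFP libraries.

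Among the Kelch genes, Klhl31 stood lower with MEF2C, Klhl41 stood higher in MEF2C replicates 1 and 2, and Klhl40 overlapped throughout. Klhl31 (ENSMUSG00000044938, GRCm38 chromosome 9, 77636500 to 77660127, plus strand) encodes a sarcomeric Kelch protein whose loss causes a congenital myopathy in mice. It had 364, 358 and 472 CPM in MEF2C replicates 1, 2 and 3, against 603, 576 and 582 CPM in GFP replicates 1, 2 and 3. All 3 MEF2C libraries lay below all 3 GFP libraries, with MEF2C replicate 3 nearest to them. The means were 398 ± 64.3 CPM in the MEF2C libraries and 587 ± 14.3 CPM in the GFP libraries (SD, n = 3 each), a log2 fold change of -0.56 ± 0.13 (SE). Over all genes edgeR gave it an adjusted p of 0.274. That value was 0.0189 without MEF2C replicate 3 and 0.0174 with no low-count filter, where the log2 fold changes were -0.70 and -0.58, and leaving out a library gave values from 0.0189 to 0.998. Scaled to the skeletal muscle markers, whose sums did not overlap between the groups, the log2 fold change of Klhl31 was -0.27 (adjusted p = 0.356), where the median of all genes moved to 0.31.

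Klhl41 (ENSMUSG00000075307, chromosome 2, 69670120 to 69684230, plus strand), the Kelch protein that stabilises nebulin, had 93.3, 74.7 and 62.4 CPM in MEF2C replicates 1, 2 and 3, against 61.0, 42.4 and 63.1 CPM in GFP replicates 1, 2 and 3. MEF2C replicate 3 lay just below GFP replicate 3, so the groups overlap at that edge. The log2 fold change was 0.47 ± 0.18. Klhl40 (ENSMUSG00000074001, chromosome 9, 121777607 to 121783818, plus strand), which binds and stabilises LMOD3 and nebulin, had 57.3, 87.2 and 69.0 CPM in MEF2C replicates 1, 2 and 3, against 63.1, 68.6 and 75.8 CPM in GFP replicates 1, 2 and 3. The groups overlap throughout, with the lowest and the highest value both in MEF2C libraries, and the log2 fold change was 0.04 ± 0.16. Klhl40 overlaps the exons of the predicted gene Gm47108 on the opposite strand, and the use of strand in counting is not given.

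The make-up of the Kelch counts within a library does not depend on scaling. Klhl31 took 70.7%, 68.8% and 78.2% of the counts of the 3 Kelch genes in MEF2C replicates 1, 2 and 3, against 82.9%, 83.8% and 80.7% in GFP replicates 1, 2 and 3. Klhl41 took 18.1%, 14.4% and 10.3% in MEF2C replicates 1, 2 and 3, against 8.39%, 6.18% and 8.74% in GFP replicates 1, 2 and 3. Klhl40 took 11.1% to 16.8% in the MEF2C libraries and 8.68% to 10.5% in the GFP libraries. The shares sum to 100%, so a lower share of Klhl31 raises the others by construction, and the Klhl40 share separated the groups although its CPM overlapped. The shares did not overlap between the groups, and MEF2C replicate 3 was closest to the GFP libraries for Klhl31 and Klhl41.

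**Figure D2:**
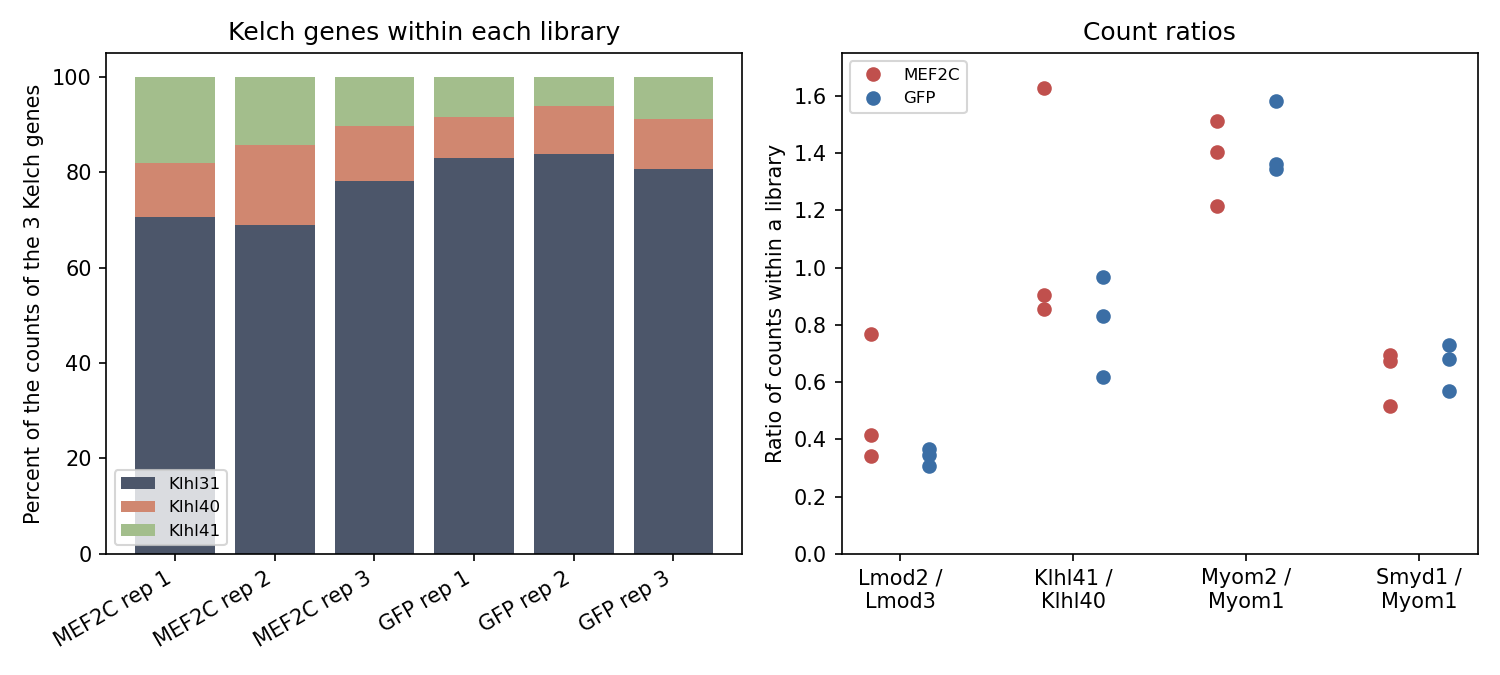
Left, percent of the counts of the 3 Kelch genes (y axis) that each took in each library (x axis). Right, ratios of counts within a library for 4 gene pairs, with a point for each MEF2C (red) and GFP (blue) library. The Klhl31 share is 68.8% to 78.2% in the MEF2C libraries and 80.7% to 83.8% in the GFP libraries, while the ratio of Lmod2 to Lmod3 reaches 0.768 in MEF2C replicate 1 and is at most 0.415 elsewhere.

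Of the leiomodins, Lmod2 stood high in MEF2C replicates 1 and 2 and Lmod3 overlapped between the groups. Lmod2 (ENSMUSG00000029683, chromosome 6, 24597762 to 24605414, plus strand) is best known as the leiomodin of the heart. It had 59.3, 51.1 and 31.0 CPM in MEF2C replicates 1, 2 and 3, against 33.8, 32.2 and 33.9 CPM in GFP replicates 1, 2 and 3. MEF2C replicates 1 and 2 lay above all GFP libraries and MEF2C replicate 3 below all of them. The mean was 47.1 ± 14.6 CPM in the MEF2C libraries and 33.3 ± 0.940 CPM in the GFP libraries (SD, n = 3 each), with a log2 fold change of 0.50 ± 0.21. Without MEF2C replicate 3 it was 0.73, and without MEF2C replicate 1 it was 0.29.

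Lmod3 (ENSMUSG00000044086, chromosome 6, 97238534 to 97252759, minus strand), the main leiomodin of skeletal muscle, had 77.2, 123 and 90.7 CPM in MEF2C replicates 1, 2 and 3, against 91.8, 93.2 and 111 CPM in GFP replicates 1, 2 and 3. MEF2C replicates held both its lowest and its highest value, and the log2 fold change was -0.03 ± 0.17. The ratio of Lmod2 to Lmod3 counts was 0.768, 0.415 and 0.341 in MEF2C replicates 1, 2 and 3, against 0.368, 0.346 and 0.305 in GFP replicates 1, 2 and 3, with overlap at MEF2C replicate 3. Lmod1, the smooth muscle leiomodin, had 13.0, 15.7 and 12.1 CPM in MEF2C replicates 1, 2 and 3, against 11.6, 8.93 and 10.9 CPM in GFP replicates 1, 2 and 3. These levels of Lmod1, given after its values were seen, show the family member that marks another cell type.

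The libraries with high Lmod2 were those with high slow-fibre markers. The 10 slow-fibre markers, among them Myh7, Tnnt1 and Atp2a2, summed to 1694, 1665 and 422 CPM in MEF2C replicates 1, 2 and 3, against 209, 199 and 265 CPM in GFP replicates 1, 2 and 3. MEF2C replicate 3 stood above the GFP libraries for this sum but far below its own group, and for Lmod2 it stood below them. The 11 fast-fibre markers summed to 144759, 138301 and 142169 CPM in MEF2C replicates 1, 2 and 3, against 192616, 212157 and 184969 CPM in GFP replicates 1, 2 and 3. The groups did not overlap for the fast-marker sum, as for Klhl31. Among these markers Myh4, Myh1 and Actn3 each overlapped between the groups. Mylpf, Myl1, Pvalb, Tnni2, Tnnc2, Tnnt3, Atp2a1 and Casq1 were each lower in the MEF2C libraries without overlap. Granulocyte markers, 9 genes, summed to 1264 CPM in MEF2C replicate 1, to 5.81 to 7.72 CPM in the other MEF2C libraries, and to between 3.51 and 79.5 CPM in the GFP libraries. Bone and osteoclast markers, 6 genes with Sp7 at 0, summed to 450, 132 and 31.5 CPM in MEF2C replicates 1, 2 and 3 and to between 32.9 and 55.4 CPM in the GFP libraries. Red blood cell markers (5 genes) summed to 4393 to 8631 CPM in the MEF2C libraries and 3080 to 4166 CPM in the GFP libraries, without overlap. Smooth muscle markers (7 genes) summed to 1008 to 1303 CPM in the MEF2C libraries and 864 to 1008 CPM in the GFP libraries. Des, also one of the muscle genes linked to MEF2 that are compared below, was a large part of these sums. In MEF2C replicates 1, 2 and 3 it had 484, 563 and 775 CPM. GFP replicates 1, 2 and 3 had 602, 465 and 460 CPM of it. Myh11, Tagln and Lmod1 were higher in the MEF2C libraries without overlap, while Acta2, Cnn1, Smtn and Des overlapped. Adipocyte markers (6 genes) summed to 846 to 1726 CPM in the MEF2C libraries and 746 to 1016 CPM in the GFP libraries. The part of these fibre and cell markers in the values of the 10 genes was not tested.

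**Figure D3:**
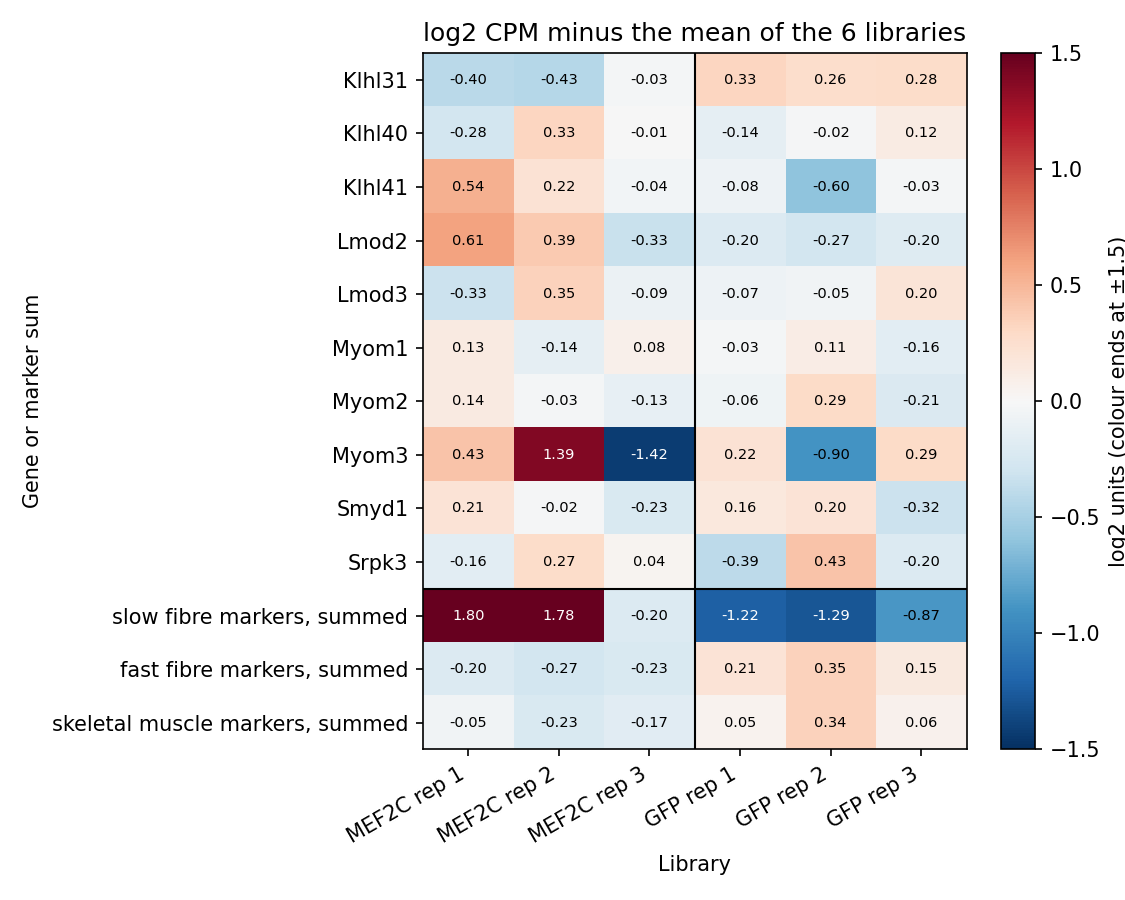
log2 CPM minus the mean of the 6 libraries for each gene (upper rows) and for the summed slow-fibre, fast-fibre and skeletal muscle markers (lower rows), with MEF2C libraries left of the line and GFP libraries right of it; colour ends at ±1.5 and cells print the value. MEF2C replicates 1 and 2 are at 0.61 and 0.39 for Lmod2 and at 1.80 and 1.78 for the slow-fibre sum, while MEF2C replicate 3 is at -0.33 and -0.20.

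The M-band genes Myom1 and Myom2 overlapped between the groups, and Myom3 was low and scattered. Myom1 (ENSMUSG00000024049, chromosome 17, 71002633 to 71126856, plus strand) encodes myomesin-1, present in all striated muscle. It had 381, 316 and 366 CPM in MEF2C replicates 1, 2 and 3, against 341, 376 and 312 CPM in GFP replicates 1, 2 and 3, a log2 fold change of 0.05 ± 0.13. Each group spans nearly the same range. Its exons overlap those of Myl12a on the opposite strand, which had 1800 to 3629 counts per library. Without a stated use of strand, reads that lie only in the shared stretch cannot be told apart. Myom2 (ENSMUSG00000031461, chromosome 8, 15057653 to 15133541, plus strand) encodes M-protein, found in fast fibres and heart. It had 535, 477 and 446 CPM in MEF2C replicates 1, 2 and 3, against 465, 595 and 419 CPM in GFP replicates 1, 2 and 3, a log2 fold change of -0.02 ± 0.14. All MEF2C values lie inside the GFP range.

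Myom3 (ENSMUSG00000037139, chromosome 4, 135759715 to 135815564, plus strand) encodes myomesin-3, the least abundant member of the family here. It had 37, 75 and 11 counts in MEF2C replicates 1, 2 and 3, against 28, 12 and 33 in GFP replicates 1, 2 and 3. These are 9.59, 18.7 and 2.66 CPM in MEF2C replicates 1, 2 and 3, against 8.30, 3.83 and 8.75 CPM in GFP replicates 1, 2 and 3. The highest and the lowest library are both MEF2C. Exact 95% Poisson intervals, which cover counting error only, were 14.7 to 23.4 CPM for MEF2C replicate 2 and 1.33 to 4.76 CPM for MEF2C replicate 3. These are the extreme libraries of the 6, and the intervals give the precision of each count. The log2 fold change was 0.55 ± 0.71, and without MEF2C replicate 2 it was -0.21.

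The balance of the myomesins within a library overlapped between the groups. The ratio of Myom2 to Myom1 counts was 1.40, 1.51 and 1.22 in MEF2C replicates 1, 2 and 3, against 1.36, 1.58 and 1.34 in GFP replicates 1, 2 and 3. Myom3 made up 1.04%, 2.30% and 0.327% of the counts of the 3 myomesins in MEF2C replicates 1, 2 and 3, against 1.02%, 0.393% and 1.18% in GFP replicates 1, 2 and 3.

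Smyd1 and Srpk3, both known as MEF2C targets in mice, overlapped between the groups. Smyd1 (ENSMUSG00000055027, chromosome 6, 71213940 to 71322233, minus strand) had 257, 219 and 190 CPM in MEF2C replicates 1, 2 and 3, against 249, 256 and 178 CPM in GFP replicates 1, 2 and 3. The groups overlap fully, with a log2 fold change of -0.04 ± 0.16. Srpk3 (ENSMUSG00000002007, chromosome X, 73774405 to 73778925, plus strand) had 40.7, 54.8 and 46.7 CPM in MEF2C replicates 1, 2 and 3, against 34.7, 60.9 and 39.5 CPM in GFP replicates 1, 2 and 3. All MEF2C values lie inside the GFP range, and the log2 fold change was 0.08 ± 0.21. That neither passed the test does not show that its level was equal in the groups.

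Seen as a list, the 10 genes had no shared direction. By edgeR, 0 of the 10 passed an adjusted p of 0.05, where 0.0758% of all tested genes passed. Their adjusted p ran from 0.274 to 0.995, while 3 had an unadjusted p under 0.05 (Klhl31, Klhl41 and Lmod2), against 5.71% of all tested genes. The DESeq2 Wald test, which called 0.293% of all tested genes, called 0 of the 10, with Klhl31 at an adjusted p of 0.0543. Of the 10, limma-voom also called 0, and over all tested genes it called 1 higher and 2 lower. Klhl31 alone, 1 of 10, had groups that did not overlap, where 11.1% of tested genes did. The log2 fold change was negative in 4 of the 10, against 47.8% of tested genes, and its median was 0.04 for the 10 and 0.01 for all tested genes. It was within 0.1 of 0 in 6 of the 10. The sign of those 6 is not fixed: with library totals in place of TMM, Lmod3, Myom2 and Smyd1 turned positive, where the median of all genes moved to 0.14.

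**Figure D4:**
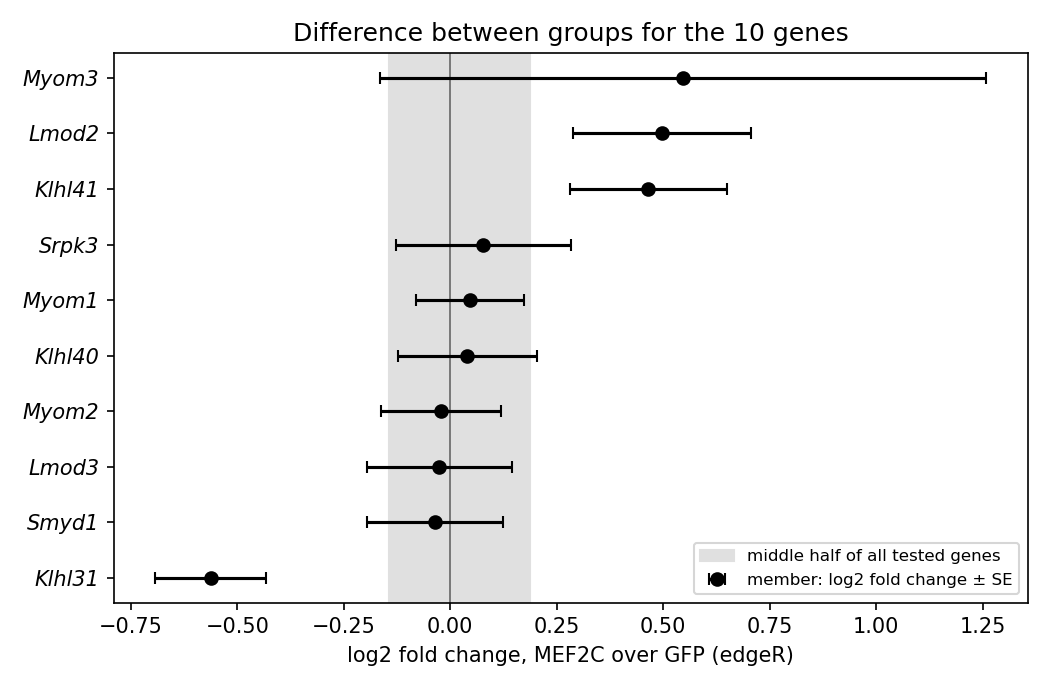
log2 fold change, MEF2C over GFP (x axis), ± SE for each gene (y axis); the grey band is the interquartile range over all tested genes, from -0.14 to 0.19. Klhl31 lies below the band at -0.56, Klhl41, Lmod2 and Myom3 lie above it at 0.47, 0.50 and 0.55, and the other 6 lie inside.

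**Figure D5:**
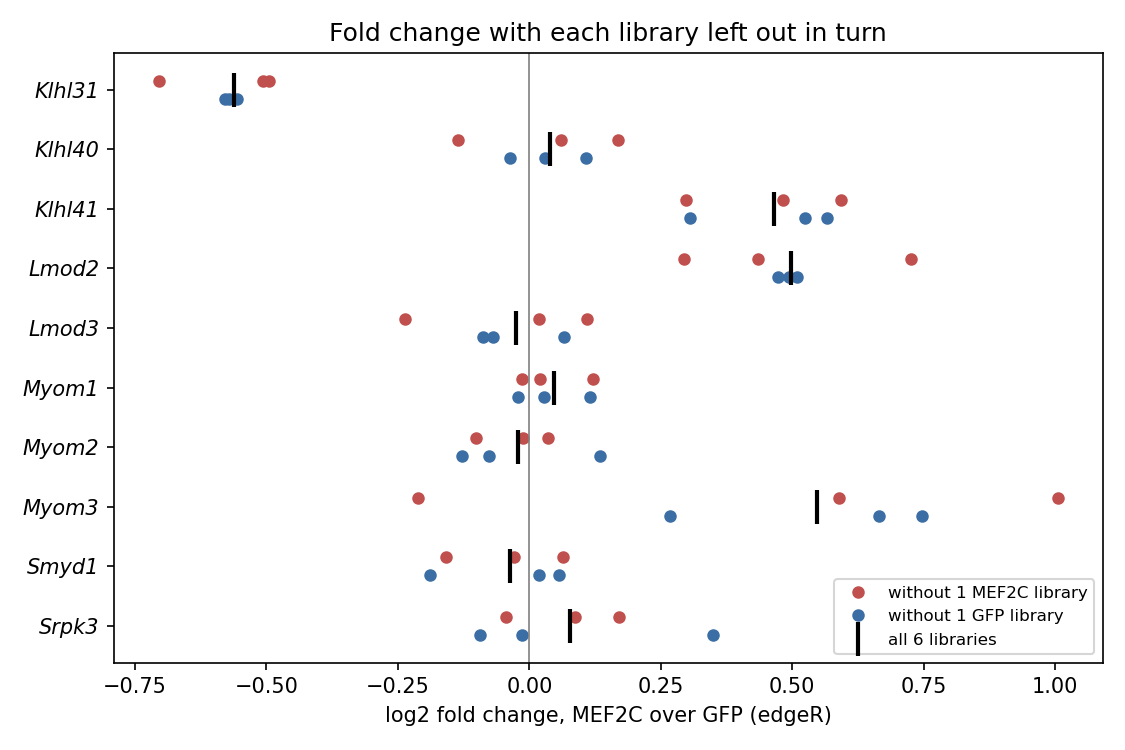
log2 fold change, MEF2C over GFP (x axis), of each gene (y axis) with all 6 libraries (black bar), without each MEF2C library in turn (red) and without each GFP library in turn (blue). Klhl31 stays between -0.70 and -0.49, Klhl41 between 0.30 and 0.59 and Lmod2 between 0.29 and 0.73, while the other 7 genes have points on both sides of 0.

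The spread within a group differed among the 10 genes. On the log2 scale, the SD over the 3 MEF2C libraries ran from 0.13 for Myom2 to 1.43 for Myom3, and over the 3 GFP libraries from 0.03 for Klhl31 to 0.67 for Myom3. Likeness of profile was measured as the root-mean-square difference of centred log2 CPM over the 6 libraries, among 7001 named genes with a mean of at least 20 counts. For Klhl31 the nearest genes were Psmd3, a proteasome subunit gene, at 0.045, Nt5c3, a nucleotidase gene, at 0.085 and Agpat5, a lipid acyltransferase gene, at 0.089. Psmd3 had 13.5, 12.7 and 16.2 CPM in MEF2C replicates 1, 2 and 3, against 20.7, 19.5 and 20.7 CPM in GFP replicates 1, 2 and 3. It was picked for its likeness to Klhl31 over these same 6 libraries, so its order of groups follows from that choice. Lmod3 and Klhl40, chosen after their values were seen, were near each other at 0.058, where Lmod3 was among the 3 genes nearest to Klhl40 and Klhl40 among the 3 nearest to Lmod3. Both were lowest in MEF2C replicate 1 and highest in MEF2C replicate 2. The genes nearest to Myom3, also chosen after their values were seen, were Rasd1 at 0.360, the fast 2A myosin gene Myh2 at 0.421 and Myoz2 at 0.461, larger differences than those of the genes above. Myh2 had 850, 917 and 193 CPM in MEF2C replicates 1, 2 and 3, against 318, 168 and 557 CPM in GFP replicates 1, 2 and 3, so that it shared with Myom3 a peak in MEF2C replicate 2 and low values in MEF2C replicate 3 and GFP replicate 2.

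Partners of these genes were taken from 7 lists by role, and 84 partner genes were tested. The lists were drawn up with earlier results of these data known, so the shares below are a description. Among them Acta1, Ckm, Tnnt1, Tnnt3 and Tpm3 were also counted in the muscle or fibre marker sums above. By edgeR 0 of the 84 passed in either direction, where 0.0758% of all tested genes passed, while 15 had an unadjusted p under 0.05, against 5.71% of all tested genes. DESeq2 called 1, Tnnt1, against 0.293% of all tested genes, and limma-voom 0, against 1 higher and 2 lower over all tested genes. The groups did not overlap for 21 of the 84 (25%), 5 higher and 16 lower, against 11.1% of all tested genes, or 5.75% higher and 5.33% lower. The log2 fold change was negative for 51 and positive for 33, with a median of -0.08, but with library totals 39 were negative and 45 positive. Measured from the median of all genes, 52 lay below it with TMM and 51 with library totals.

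Of 11 tested M-band partners, 10 had a negative log2 fold change, with a median of -0.21, and 4 had groups without overlap, all lower. Trim55, Trim54 and Trim63 encode the muscle RING-finger proteins MuRF2, MuRF3 and MuRF1. Trim55 had 18.7, 30.6 and 23.2 CPM in MEF2C replicates 1, 2 and 3, against 38.8, 42.4 and 39.5 CPM in GFP replicates 1, 2 and 3, and its log2 fold change was -0.73 ± 0.19; the adjusted p by edgeR was 0.399, and 0.0443 with no low-count filter. Trim54 had 75.4, 83.7 and 109 CPM in MEF2C replicates 1, 2 and 3, against 139, 136 and 118 CPM in GFP replicates 1, 2 and 3. For both genes the MEF2C libraries lay below all GFP libraries. Trim63, named after its values were seen, was the 1 positive gene of the list. It had 368, 132 and 199 CPM in MEF2C replicates 1, 2 and 3, against 190, 170 and 139 CPM in GFP replicates 1, 2 and 3, with overlap and a log2 fold change of 0.49 ± 0.41.

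Of 14 tested thin-filament genes, 8 were negative and 6 positive, with a median of -0.16. The beta-tropomyosin gene Tpm2 had 3656, 4143 and 3104 CPM in MEF2C replicates 1, 2 and 3, against 4716, 4809 and 4869 CPM in GFP replicates 1, 2 and 3. Tmod4, the tropomodulin that caps pointed ends in skeletal muscle, had 400, 378 and 327 CPM in MEF2C replicates 1, 2 and 3, against 485, 484 and 464 CPM in GFP replicates 1, 2 and 3. Both had groups without overlap, as did 4 genes of the list that stood higher and 4 others that stood lower. The slow troponin gene Tnnt1 had the largest log2 fold change of the list, 3.12 ± 0.78, and with the slow tropomyosin gene Tpm3 it passed the test without MEF2C replicate 3 (edgeR adjusted p = 4.21e-05 for each); both were named after their values were seen.

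Of 15 tested genes in the list of other Kelch proteins and the cullin-3 machinery, which also held Flnc, 9 were negative and 6 positive. Flnc encodes filamin C, an actin cross-linker of the Z-disc. It had 101, 108 and 134 CPM in MEF2C replicates 1, 2 and 3, against 73.8, 96.0 and 82.9 CPM in GFP replicates 1, 2 and 3. The groups did not overlap. Its log2 fold change was 0.44 ± 0.15 (edgeR adjusted p = 0.753). Klhl33 had 6.22, 6.23 and 5.57 CPM in MEF2C replicates 1, 2 and 3, against 14.5, 9.25 and 8.48 CPM in GFP replicates 1, 2 and 3, again without overlap.

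Of 8 tested genes of the SMYD family and of myosin folding, 5 were negative. Unc45b, the myosin chaperone that works with SMYD1, had 240, 211 and 215 CPM in MEF2C replicates 1, 2 and 3, against 341, 287 and 261 CPM in GFP replicates 1, 2 and 3. The groups did not overlap, and the log2 fold change was -0.42 ± 0.13 (edgeR adjusted p = 0.684). Smyd3, another methyltransferase of the family, had 4.40 to 4.84 CPM in the MEF2C libraries and 5.83 to 7.98 CPM in the GFP libraries. Of 11 tested SR kinases and SR proteins, the list around Srpk3, 6 were positive and 5 negative with a median of 0.02, and 0 had groups without overlap. The 2 with the smallest p were Srsf5 and Clk4, at 0.51 ± 0.24 and 0.23 ± 0.17.

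Among 11 tested MEF2 and SRF regulators 7 were negative, with 0 without overlap. Mef2a and Srf had the smallest p of that list, with log2 fold changes of -0.29 ± 0.21 and -0.36 ± 0.30. Of 14 other muscle genes linked to MEF2, 7 were positive and 7 negative with a median of 0.00. There Nr4a1, an orphan nuclear receptor gene, stood at -0.38 ± 0.16. Ppargc1a, the coactivator of oxidative metabolism, had 21.2, 26.6 and 18.9 CPM in MEF2C replicates 1, 2 and 3, against 31.4, 27.4 and 27.3 CPM in GFP replicates 1, 2 and 3, the 1 gene of that list whose groups did not overlap.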

How the data were processed

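Per the labels, 1 µg of total RNA from frozen muscle entered a Nanopore PCR-cDNA library. Read counts per gene and the CPM of the same libraries were deposited, both named by the file headers. The submitters' processing notes name minimap2, GRCm38 and DESeq2 1.6.3 without roles; counter, annotation and strand use are not given there or in the headers. CPM values as deposited, which the file headers give as scaled to library size, served only to recover library totals, of which the listed genes held 95.6% to 96.4%. The 30 rows naming no gene held 0 counts and were left out. The members and gene lists were chosen with earlier results of these data known.

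Counts were tested over all genes with edgeR 4.0.16 (R 4.3.3; filter by group, TMM, robust quasi-likelihood test, Benjamini-Hochberg adjustment, called at an adjusted p under 0.05), which was tested on simulated data. The simulation gave all genes the same spread and set larger fold changes than the members had. It therefore does not show how well the test would find differences of their size. SEs come from the F statistic, and normalised CPM use TMM-scaled listed totals. A count of 0 allows up to 3 counts, or 0.726 to 0.957 CPM. Without molecular identifiers in the protocol, intervals cover counting error only. No pair of replicates agreed within sampling noise (chi-square per degree of freedom 5.40 to 11.5). All 10 members were named, and from each partner list any gene called, otherwise the 2 with the smallest unadjusted p; others are marked where named. Likeness used log2(CPM + 0.1). Coordinates and transcript lengths are from GENCODE vM21 (GRCm38; 22022 of 22036 identifiers matched), promoter sequences from RefSeq (GRCm38.p6). Alternatives were DESeq2 1.42.0 size factors and Wald test, limma-voom (3.58.1), library totals, no or a strict filter (1 CPM in 3 libraries and a mean of 20 counts), non-robust dispersion, a replicate block and leaving out each library; added after seeing the data were TMM on the recovered totals and scaling to the skeletal muscle markers.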

Additional observations from a re-analysis of the deposited data

How the results depend on the processing

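The median log2 fold change of the 10 members, 0.04, lay between -0.04 and 0.14 with a library left out and at 0.35 scaled to the skeletal muscle markers, where the median of all genes was 0.31. Klhl31 stayed negative and Klhl41 and Lmod2 positive under all 16 alternatives run, but scaled to the skeletal muscle markers their values were -0.27, 0.73 and 0.79 in place of -0.56, 0.47 and 0.50 (adjusted p = 0.356, 0.188 and 0.172 by edgeR). Of the 10 members, 4 were negative, against 1 with library totals or scaled to the skeletal muscle markers and 1 to 7 with a library left out. Signs turned for Lmod3, Myom2 and Smyd1 with library totals (0.11, 0.11 and 0.090) and scaled to the muscle markers (0.28, 0.29 and 0.26). With a library left out the ranges were -0.14 to 0.17 for Klhl40, -0.24 to 0.11 for Lmod3, -0.021 to 0.12 for Myom1, -0.13 to 0.13 for Myom2, -0.21 to 1.00 for Myom3, -0.19 to 0.064 for Smyd1 and -0.095 to 0.35 for Srpk3. Members called were 0, with 1 (Klhl31) with no low-count filter and 0 to 1 with a library left out. Partner genes called were 0, with 1 with no low-count filter (Trim55), 1 by DESeq2 (Tnnt1) and 0 to 2 with a library left out. Over all genes edgeR called 3 higher and 4 lower; the counts were 20 and 15 with no low-count filter, 1 and 2 with the strict filter, 17 and 10 by DESeq2, 1 and 2 by limma-voom, 0 and 0 without robust dispersion (557 at an unadjusted p under 0.05), 15 and 0 scaled to the muscle markers, 4 and 2 with library totals, and 0 to 14 and 0 to 8 with a library left out. Same-numbered libraries deviated with correlations of -0.23, 0.05 and -0.25 for replicates 1, 2 and 3. These do not show pairing by number, and with 3 libraries per group they cannot exclude it. The replicate block called 2 genes higher and 0 lower, and 0 members. The cause of these shifts was not tested. Depth limits Myom3 most, with a mean of 32.7 counts per library.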
